A study of Mus musculus with 28 samples.

Results

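Transcripts of C2C12 cells after 48 h in differentiation medium were compared with those of the same cells in growth medium. C2C12 is an immortalised mouse myoblast line, labelled wild type (WT) in every sample. In growth medium (GM) the cells had DMEM with 20% fetal bovine serum, and at 90% confluence they were moved to DMEM with 3% horse serum, the differentiation medium (DM). The comparison took 6 of the 18 RNA-seq libraries, among 28 samples in all: the 3 whose titles name GM and the 3 whose titles name DM48h, over all genes of the count table. No cells kept in GM for the same 48 h are labelled, so the medium and the time spent at high density cannot be told apart. The labels number biological replicates and describe no separate cultures. The spread that p-values here are set against is therefore that between libraries, and may be technical. In bulk RNA, fewer cells of a type and less RNA per cell cannot be told apart.

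Myoblasts are muscle precursor cells that divide while serum is plentiful. When growth factors are withdrawn, the basic helix-loop-helix factors of the MyoD family, paired with E proteins and helped by the Mef2 factors, switch on muscle genes, while cyclin-dependent kinase inhibitors hold the cells out of the cell cycle. The cells then fuse into myotubes, build sarcomeres of thick and thin filaments, and lay down the calcium store and the triad that couple the membrane's electrical signal to contraction.

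Total counts were 26.8 to 32.8 M in the GM libraries and 24.2 to 30.6 M at 48 h. Of 49089 genes in the table, 15303 had enough counts to be tested. Calls rest on an adjusted p below 0.05 (edgeR's quasi-likelihood test, Benjamini-Hochberg adjustment over all genes tested), and log2 fold changes are given 48 h minus GM ± the standard error of the fit over 3 libraries a group. Levels are CPM, counts scaled to the size of each library, which depend on transcript length and are not compared between genes. Protein-coding transcripts made up 70.9 ± 0.613% of GM counts and 69.1 ± 0.563% of those at 48 h (SD, n = 3), and the signal recognition particle RNAs 19.8 ± 0.260% and 19.8 ± 0.530%. Of the defining muscle lineage markers, Myod1, Myf5, Myog, the M-cadherin gene Cdh15 and the desmin gene Des had counts in all 6 libraries.

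At 48 h 10004 of 15303 genes (65.4%) were called, 4979 higher (32.5%) and 5025 lower (32.8%). The median log2 fold change of all genes tested was 0.0081. The large changes were mostly rises: 1481 called genes were at least 2-fold higher and 1121 at least 2-fold lower, 540 and 191 passed 4-fold, 142 and 22 passed 16-fold, and 65 and 10 passed 32-fold, in fitted values that include genes with no count in one medium. For 10817 genes (70.7%) the CPM of the 3 libraries of one medium did not overlap those of the other. A list with about 65.4% of its members called is therefore at the background of this comparison, and the counts below are given with their direction and their median beside it. The lists were drawn up with earlier results of these data known.

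**Figure D1:**
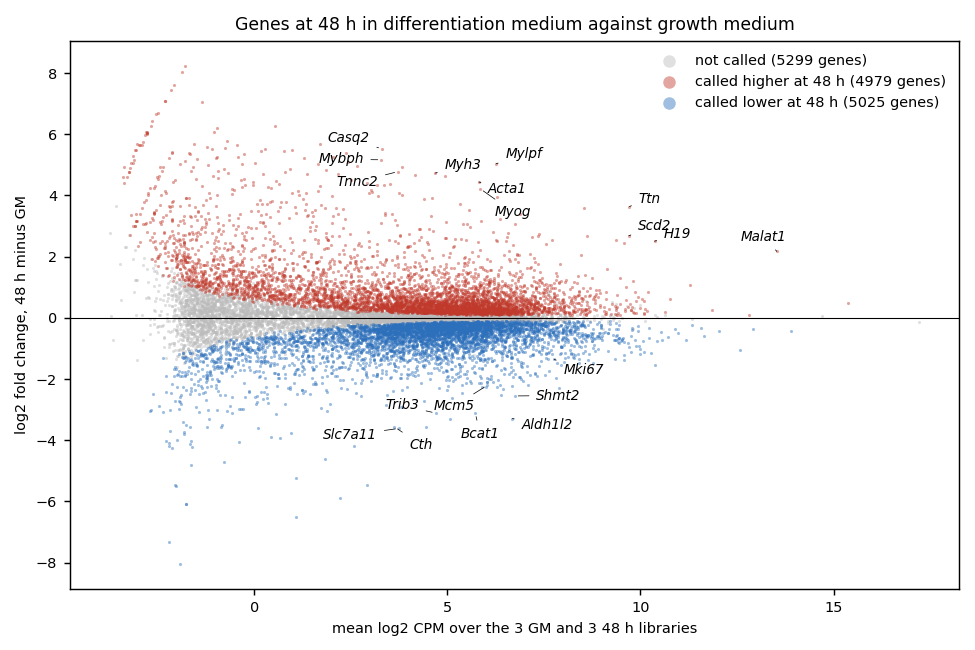
Each point is a gene tested, placed by its mean log2 CPM over the 6 libraries (x axis) and its log2 fold change at 48 h against GM (y axis), in red where called higher (4979), blue where called lower (5025) and grey where not called. Among abundant genes, Mylpf and Casq2 lie at the upper edge and Slc7a11 at the lower edge. The points in rows at the far left are genes with few or no counts in one medium, whose fitted values depend on the small count added in the fit.

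Where the mean over the 6 libraries was 3 or more on the log2 CPM scale, the largest rises were in genes of the contractile machinery and its calcium store. Casq2, a calsequestrin that binds calcium inside the sarcoplasmic reticulum (RefSeq gene span chr3:102086415-102146514 on GRCm38.p6), stood at 1.59, 1.34 and 1.36 CPM in GM and 61.6, 64.5 and 70.9 CPM at 48 h. All 3 libraries at 48 h lay far above all 3 in GM, and the rise was 5.52 ± 0.12 (45.9-fold higher, edgeR adjusted p = 2.09e-19). Mybph, a myosin-binding protein H gene, rose by 5.17 ± 0.10, Mylpf, the fast regulatory myosin light chain, by 5.04 ± 0.078, and the troponin C genes Tnnc2 and Tnnc1 by 4.78 ± 0.10 and 4.63 ± 0.086. Myh3, the embryonic myosin heavy chain, Tnnt3, the fast troponin T, Acta1, the skeletal muscle actin, and Mymk, the fusion protein myomaker, completed the protein-coding genes of the first 10, at 4.73 ± 0.087, 4.68 ± 0.084, 4.44 ± 0.084 and 4.38 ± 0.10. The predicted long non-coding gene Gm26870 was also among them at 4.94 ± 0.62, with an error several times that of the others: its libraries stood at 2.78, 1.62 and 3.86 CPM in GM and 132, 50.0 and 67.2 CPM at 48 h.

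By the same limit on the mean, the 10 largest falls were of another kind, and 4 of them were in genes of amino acid or one-carbon metabolism. Larger falls lay under that limit, such as Avil at −5.90 ± 0.13, described further on. Slc7a11, the cystine transporter of the cell membrane (chr3:50364936-50499087, same annotation), stood at 48.5, 50.4 and 41.2 CPM in GM and 3.46, 3.90 and 4.13 CPM at 48 h. The groups did not overlap, and the fall was −3.61 ± 0.12 (12.2-fold lower, edgeR adjusted p = 1.08e-16). Cth, which makes cysteine from cystathionine (−3.56 ± 0.13), and Aldh1l2, a mitochondrial enzyme of the folate cycle (−3.29 ± 0.057), fell with it. So did Bcat1, which transfers the amino group of branched-chain amino acids (−3.11 ± 0.057), and the stress pseudokinase Trib3 (−3.11 ± 0.10). Slc16a11, a monocarboxylate transporter family gene, fell by 3.57 ± 0.10, the DNA helicase gene Recql4 by 2.92 ± 0.083, the fatty acid activating enzyme Acsbg1 by 2.85 ± 0.094, and the integrin subunit gene Itgb7 by 2.73 ± 0.12. Prl2c2, a proliferin, fell from 106 ± 5.75 to 10.7 ± 0.922 CPM (mean ± SD, n = 3; log2 fold change −3.30 ± 0.081), but its near-identical neighbours in the prolactin family could share its reads, so this value is uncertain.

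The factors that direct muscle differentiation changed by very unequal amounts. Myog, the myogenin gene at chr1:134290004-134292548, stood at 13.4, 13.1 and 13.5 CPM in GM and 239.6, 248 and 258 CPM at 48 h. The GM libraries lay close together and far below those at 48 h, and the rise was 4.22 ± 0.072 (18.6-fold higher, edgeR adjusted p = 8.35e-21). Myod1, which commits cells to the lineage, stood at 49.8, 42.6 and 48.7 CPM in GM and 70.4, 74.7 and 70.9 CPM at 48 h. It rose by only 0.62 ± 0.07, yet no GM library reached the lowest library at 48 h. Myf5, the family member that marks the undifferentiated myoblast, fell from 74.0 ± 3.17 to 50.6 ± 3.45 CPM (mean ± SD, n = 3; log2 fold change −0.55 ± 0.055). Myf6, the member linked to mature fibres, was near the limit of detection, with 0.445, 0.153 and 0.399 CPM in GM and 0.191, 0.608 and 0.330 CPM at 48 h, and the groups overlapped (adjusted p = 0.739 by the same edgeR test).

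Of 17 genes of the MyoD family, their partners and the Mef2 factors, 12 rose and 3 fell, with a median of 0.55. Mef2a and Mef2c, which bind next to MyoD at muscle genes, rose by 1.64 ± 0.058 and 1.65 ± 0.11. The E protein genes, whose products pair with MyoD, went different ways: Tcf4 rose (1.34 ± 0.052) while Tcf3 fell (−0.82 ± 0.065). The Id genes encode proteins that hold E proteins away from MyoD. Id1 stood at 79.0, 66.0 and 73.5 CPM in GM and 17.2, 17.3 and 17.4 CPM at 48 h, and Id3 at 156, 158 and 166 CPM in GM and 64.5, 64.2 and 65.1 CPM at 48 h. Both were lower in every library at 48 h, with falls of −2.07 ± 0.086 and −1.31 ± 0.077. Within the 18 Id and Notch genes tested, 6 rose and 6 fell (median −0.08). The risers were led by the Notch ligand gene Dll1, 4.07 ± 0.11, and the Notch target Heyl, 3.52 ± 0.15, with Hes6, an inhibitor of Hes1, at 1.84 ± 0.064.

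Fusion genes moved as a few very large rises within a list that was mixed. Mymk stood at 2.45, 2.29 and 2.69 CPM in GM and 50.0, 51.0 and 54.0 CPM at 48 h. Mymx, the micropeptide myomixer that completes fusion with myomaker, stood at 0.334, 0.428 and 0.499 CPM in GM and 20.4, 22.0 and 23.0 CPM at 48 h. In GM neither gene came near its level at 48 h, and the rises were 4.38 ± 0.10 and 5.67 ± 0.14. Tmem182 rose by 4.51 ± 0.12 and the muscle caveolin gene Cav3, from under 0.2 CPM, by 4.01 ± 0.34, while Elmo1, an activator of Rac (−0.66 ± 0.16), and the cell surface receptor gene Boc (−0.58 ± 0.14) fell. In all, 10 of 20 fusion genes tested rose and 6 fell (median 0.25).

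**Figure D2:**
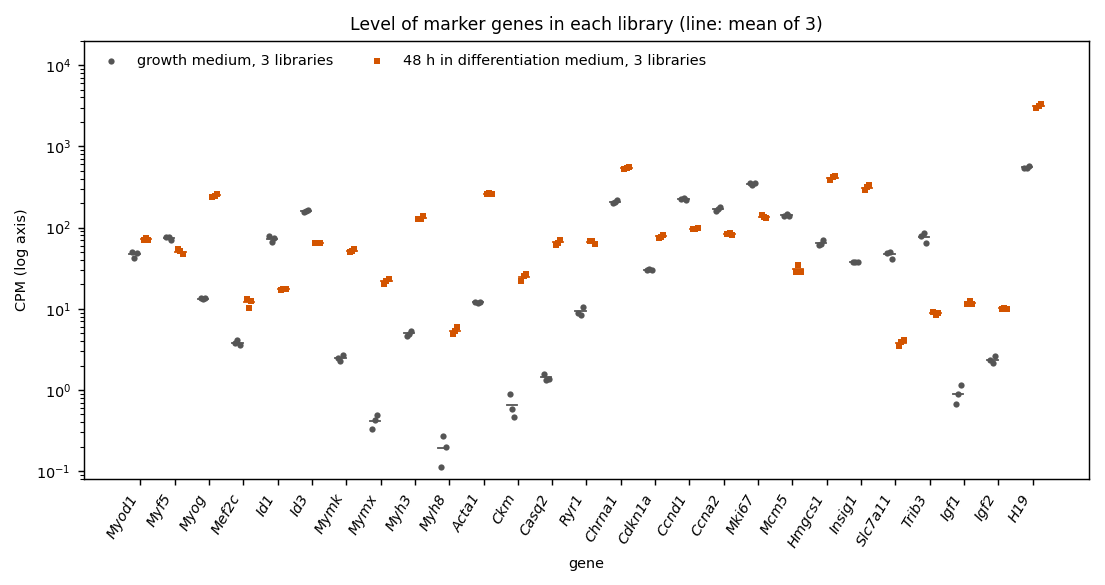
CPM on a log axis for each library of GM (circles) and 48 h (squares), with a line at the mean of 3, for 27 marker genes. Myog, Mymk and Casq2 are higher in all 3 libraries at 48 h, and Id1, Mcm5 and Slc7a11 are lower in all 3.

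The sarcomere genes rose almost without exception. All 22 thick filament genes tested rose, with a median log2 fold change of 3.82, or 3.54 when Myl2, which had no count in GM, is set at its lower bound. Among myosin heavy chains, Myh3 stood at 4.63, 4.92 and 5.38 CPM in GM and 129, 129 and 141 CPM at 48 h, and Myh8, the perinatal form, at 0.111, 0.275 and 0.199 CPM in GM and 4.89, 5.37 and 5.94 CPM at 48 h. Every library at 48 h exceeded every GM library for both, and the rises were 4.73 ± 0.087 and 4.72 ± 0.29. Myh4, the fastest adult form, was still at only 2.75 ± 0.134 CPM at 48 h, against 0.0314 ± 0.0306 CPM in GM (mean ± SD, n = 3). Unc45b, a chaperone that folds myosin, rose by 5.45 ± 0.21. Myl2, the slow regulatory light chain, had 23 counts over the 3 libraries at 48 h, at least 8.06-fold more than the 3 counts over the group that a count of 0 in GM allows. Neighbouring myosin genes are alike in sequence, and the sources used here do not give how reads were shared between them.

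Of 24 thin filament genes tested, 21 rose and 1 fell (median 3.42). Acta1 stood at 12.0, 11.9 and 12.3 CPM in GM and 257, 270.1 and 259.9 CPM at 48 h, and Actc1, the cardiac actin made early in skeletal muscle, at 0.815, 1.19 and 1.26 CPM in GM and 33.0, 36.1 and 35.4 CPM at 48 h. Both actins were low in all GM libraries and high in all libraries at 48 h, with rises of 4.44 ± 0.084 and 4.98 ± 0.12. The leiomodin gene Lmod2, which lengthens thin filaments, rose by 5.07 ± 0.21, and Klhl40, which stabilises nebulin, by 4.82 ± 0.14. The member that fell was Tpm3, a tropomyosin also used outside muscle (−0.64 ± 0.041). Of 23 titin and Z-disc genes tested, 18 rose and 2 fell (median 1.92). Ttn, the giant spring of the sarcomere, stood at 251, 229 and 236 CPM in GM and 3316, 2988 and 2613 CPM at 48 h, a rise of 3.64 ± 0.17 (12.5-fold higher, edgeR adjusted p = 3.54e-14). Ankrd2, Smpx, Myoz2 and Csrp3, small proteins of the Z-disc and I band, rose by 5.52 ± 0.42, 4.75 ± 0.22, 4.49 ± 0.29 and 4.45 ± 0.25. Palld, the palladin gene of stress fibres, fell by 0.56 ± 0.17, a call that was lost (adjusted p = 0.355) with a covariate for the transcripts high in 1 library of the 24 h group, and Pdlim7 fell by 0.27 ± 0.068.

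The letters before the start sites of these genes were searched on both strands for 7 motifs, in windows of 250 bases from RefSeq on GRCm38.p6. A window was at hand for 10474 of 15227 gene symbols tested. CAGCTG, an E-box that dimers of the MyoD family can bind, was in 30.4% of 23 thick filament promoters and 36% of 25 thin filament promoters, against 12.5% of 13363 promoters of genes tested and 13% of all 32851. It was in 25% of 460 promoters of genes called at least 4-fold higher and 10.4% of 173 of genes called at least 4-fold lower. Other lists varied: 0% of 16 dystrophin complex promoters, 10.5% of 19 fusion promoters and 10% of 20 of the MyoD family and Mef2 list. In the Id and Notch list it was in 29.4% of 17, and in the bone and cartilage list in 50% of 10. The CArG box of serum response factor was in 13% of the thick filament promoters against 1.47% of all, and TAAAAATA, a Mef2 core, in 12.0% of the thin filament promoters against 2.45%. Each share rests on 3 promoters. The CArG box was also in 33.3% of 18 immediate early and growth factor response promoters and 26.7% of 15 smooth muscle and stress fibre promoters. Those lists had median log2 fold changes of −0.15 and −0.06. TAAAAATA was in 15% of 20 promoters of a list of long non-coding RNAs and microRNA hosts. A match describes the letters and not a bound site, and the promoters shown here and below were chosen after their matches were seen. Those of Acta1, at chr8:123894776-123895025 on the minus strand, and Mylpf, at chr7:127211358-127211607 on the plus strand, are shown for the E-box, in capitals in both. The Acta1 window also has a CArG box in capitals.
Acta1: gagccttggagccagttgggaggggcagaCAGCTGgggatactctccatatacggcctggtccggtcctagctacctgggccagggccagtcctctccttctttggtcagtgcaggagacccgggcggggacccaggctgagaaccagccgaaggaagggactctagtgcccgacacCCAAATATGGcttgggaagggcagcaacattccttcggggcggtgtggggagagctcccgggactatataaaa
Mylpf: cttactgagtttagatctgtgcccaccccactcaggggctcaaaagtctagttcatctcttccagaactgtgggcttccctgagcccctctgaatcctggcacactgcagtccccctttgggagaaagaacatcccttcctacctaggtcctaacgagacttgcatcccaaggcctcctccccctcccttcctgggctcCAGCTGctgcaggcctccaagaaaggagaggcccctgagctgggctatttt
The Myog promoter held none of the 7 motifs.

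Among the 24 genes of the calcium store and triad, 22 rose and 1 fell (median 1.81). Cacna1s, the voltage sensor of the transverse tubule, stood at 0.408, 0.244 and 0.465 CPM in GM and 13.1, 12.7 and 15.6 CPM at 48 h. Ryr1, the calcium release channel that it opens, stood at 8.90, 8.40 and 10.5 CPM in GM and 68.0, 67.8 and 63.2 CPM at 48 h. Both were higher in all 3 libraries at 48 h, and the sensor gene changed more (5.21 ± 0.18) than the channel gene (2.84 ± 0.11), a difference between genes that was not tested. Hrc, a calcium-binding protein of the store, rose by 5.04 ± 0.12 and Srl, sarcalumenin, by 3.93 ± 0.094, while Mtm1, the phosphatase myotubularin, fell by 0.57 ± 0.093. Of the 19 promoters of this list 36.8% held CAGCTG. The Casq2 promoter, at chr3:102086165-102086414 on the plus strand, is shown for its Mef2 core TAAAAATA, which is read from the other strand and stands in capitals.
Casq2: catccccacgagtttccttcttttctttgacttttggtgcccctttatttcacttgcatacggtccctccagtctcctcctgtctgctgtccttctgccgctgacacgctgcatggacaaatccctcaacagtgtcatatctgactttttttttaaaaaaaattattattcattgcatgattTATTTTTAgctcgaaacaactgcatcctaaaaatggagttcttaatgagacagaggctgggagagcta
Of 13 membrane excitability genes tested, 8 rose and none fell (median 1.22). Scn4a, the adult muscle sodium channel, had counts in 1 of 3 GM libraries and stood at 1.36 ± 0.255 CPM at 48 h, against 0.0332 ± 0.0576 CPM in GM (mean ± SD, n = 3).

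Genes of the neuromuscular junction and the dystrophin complex also rose. Chrna1, the acetylcholine receptor alpha subunit, stood at 201, 207 and 219 CPM in GM and 531, 543 and 551 CPM at 48 h, and Chrng, the fetal gamma subunit, at 3.52, 3.06 and 3.92 CPM in GM and 55.5, 57.3 and 55.8 CPM at 48 h. No library overlapped between media, and the rises were 1.37 ± 0.042 and 4.01 ± 0.089. The junction list had 10 of 12 members higher and 2 lower (median 1.30), with the agrin receptor Lrp4 at 2.09 ± 0.056 and its ligand Agrn at −0.46 ± 0.10. Chrne, the adult subunit, had no count in any of the 6 libraries. Of the 12 junction promoters 41.7% held CAGCTG, and that of Chrna1, at chr2:73580339-73580588 on the minus strand, held it at 2 places, in capitals.
Chrna1: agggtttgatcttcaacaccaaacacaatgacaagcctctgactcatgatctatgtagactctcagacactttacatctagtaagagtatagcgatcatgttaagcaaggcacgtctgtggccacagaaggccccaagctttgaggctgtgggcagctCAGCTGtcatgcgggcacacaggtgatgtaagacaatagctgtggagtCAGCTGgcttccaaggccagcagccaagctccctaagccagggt
Of 17 dystrophin complex genes 12 rose and 2 fell (median 0.97). The sarcoglycan gene Sgcd was 1 of those that fell, by 0.49 ± 0.084. Dmd itself had no count in GM and 17 counts over the libraries at 48 h, at least 6.21-fold more than the 3 counts over the group that a 0 allows.

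Open chromatin at promoters was measured by ATAC-seq in GM and at 60 h, not at 48 h, with 1 deposited peak list for each condition, so no test was possible. The peaks are on mm10, the same primary assembly as GRCm38. A window from 250 bases before to 50 after the start overlapped a peak for 87.9% of 13363 promoters of genes tested in GM and 88.5% at 60 h. For thick filament genes the share went from 30.4% of 23 promoters in GM to 82.6% at 60 h, and for thin filament genes from 60.0% of 25 to 84.0%. Promoters of genes called at least 4-fold higher at 48 h were at 58.3% and 70.0%, and those of genes called at least 4-fold lower at 74.0% and 72.8%. Cholesterol synthesis, DNA replication, mitosis and ATF4 lists had the same share in both lists, 89.5%, 97.1%, 96.9% and 84.4%. Mylpf, Casq2, Myh3, Myh8, Mybph and Tnnc2 had a peak at the promoter in the 60 h list alone, with the authors' fold enrichment at 1.82, 3.10, 2.11, 2.35, 2.07 and 3.62. Acta1, Ckm, Chrna1, Actc1 and Chrng had a peak in both lists. The enrichment was higher at 60 h for Acta1 (2.155 in GM, 2.984 at 60 h) and Ckm (2.13 and 3.55). It was lower at 60 h for Chrna1 (4.92 and 4.45), Actc1 (2.48 and 1.65) and Chrng (4.74 and 3.02). The lists hold 181622 peaks over 113 Mb in GM and 189516 over 127 Mb at 60 h. Both include peaks down to 1.10-fold enrichment and a −log10 q of 0, so presence in a list is a lenient measure.

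**Figure D3:**
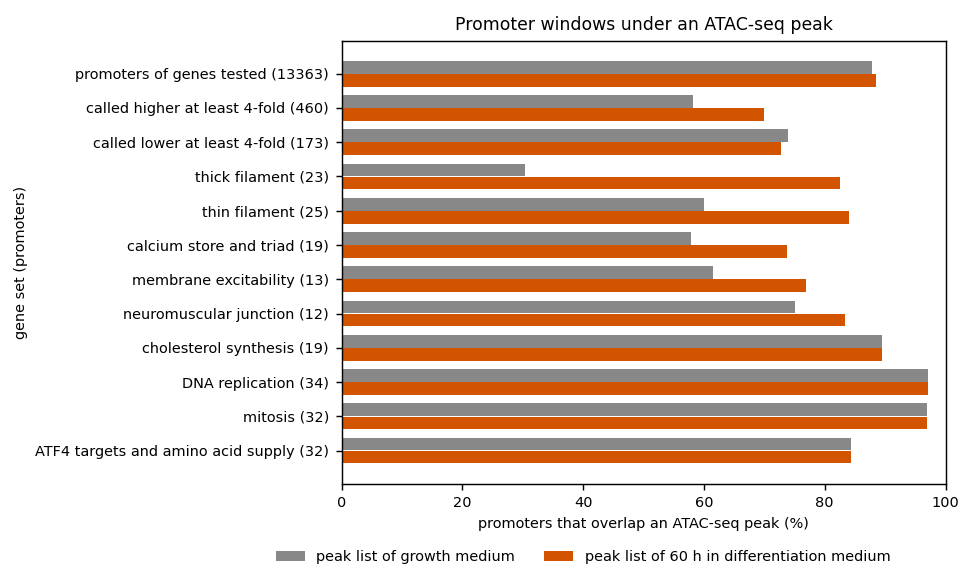
Share of promoter windows that overlap an ATAC-seq peak (x axis, percent) in the deposited list of GM (grey) and of 60 h (orange), for the gene sets on the y axis with their number of promoters. The thick filament bars go from 30.4 to 82.6%, while the bars of the mitosis genes are both at 96.9%.

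Energy genes divided between muscle isoforms and general ones. Ckm, the muscle creatine kinase, stood at 0.890, 0.581 and 0.465 CPM in GM and 22.2, 25.5 and 26.5 CPM at 48 h. All GM libraries were below 1 CPM and all at 48 h above 10 CPM, a rise of 5.27 ± 0.17 (38.6-fold higher, edgeR adjusted p = 6.94e-17). Of the 19 creatine and muscle energy isoform genes tested 15 rose and 2 fell (median 0.96), among them the muscle cytochrome oxidase subunit Cox8b (5.77 ± 0.37) and the muscle glycogen phosphorylase Pygm (4.27 ± 0.32), for which the table has 2 identifiers under 1 symbol. The beta enolase gene Eno3 went the other way (−0.37 ± 0.042). Glycolysis was mixed at 48 h, 11 of 20 higher and 5 lower (median 0.13), with Pdk1, which closes pyruvate dehydrogenase, at 1.60 ± 0.067 and the glucose transporter gene Slc2a1 at −0.65 ± 0.057. Of 35 respiratory chain and citrate cycle genes 7 rose and 17 fell (median −0.13), a called share near the background. Of 36 complex I subunit genes 3 rose and 20 fell (median −0.20).

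Cell cycle genes fell together. Mki67, the proliferation marker, stood at 356, 334 and 357 CPM in GM and 142, 135 and 131 CPM at 48 h, and Ccna2, a cyclin that drives replication and entry into mitosis, at 162, 170.4 and 177 CPM in GM and 83.3, 86.4 and 81.5 CPM at 48 h. The libraries at 48 h were all below those in GM, with falls of −1.36 ± 0.045 and −1.02 ± 0.042, so both transcripts were reduced yet still present. Mcm5, a subunit of the replicative helicase, stood at 139, 147 and 138 CPM in GM and 28.4, 34.9 and 28.7 CPM at 48 h, a fall of −2.20 ± 0.076 (4.60-fold lower, edgeR adjusted p = 3.55e-16). Of 38 DNA replication genes tested 37 fell and none rose (median −1.42), with the licensing factor Cdt1 at −2.28 ± 0.10 and Mcm10 at −2.13 ± 0.075. All 36 mitosis genes fell (median −1.01), with Spc24 of the kinetochore at −1.77 ± 0.072 and separase, Espl1, at −1.68 ± 0.082. Of 64 replication-dependent histone genes 63 fell (median −1.74). Hist1h2ad had the largest fall of them, −2.45 ± 0.13, and Hist2h2be was the sole member that rose (0.68 ± 0.19, adjusted p = 0.00416 by the edgeR test, and 0.05 with a covariate for the transcripts high in 1 library of the 24 h group). Histone genes are near copies of each other, so single members are uncertain.

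GCGGGAA, a core that E2f factors can bind, was in 23.5% of 34 DNA replication promoters and in none of the 32 mitosis promoters. It was in 3.82% of all promoters and 6.70% of those of genes tested. The list of splicing regulators, with 8 genes higher and 8 lower, had it in 33.3% of 24. CCAAT, bound by NF-Y, was in 61.8% of the DNA replication and 75.0% of the mitosis promoters. It was in 33.8% of all and 35.6% of those of genes tested. The endoplasmic reticulum chaperone list, which did not move as a block, had it in 93.3% of 15. Uhrf1 brings the maintenance methyltransferase to newly copied DNA and fell by 1.94 ± 0.047. It has both motifs in a promoter at chr17:56303087-56303336 on the plus strand, with GCGGGAA read from the other strand. Both matches are in capitals.
Uhrf1: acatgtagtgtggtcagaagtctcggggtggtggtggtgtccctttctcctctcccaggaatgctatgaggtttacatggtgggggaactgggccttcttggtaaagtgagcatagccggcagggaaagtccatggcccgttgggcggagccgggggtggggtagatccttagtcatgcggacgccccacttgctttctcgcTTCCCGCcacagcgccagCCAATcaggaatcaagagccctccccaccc

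Among 25 cyclins, cyclin-dependent kinases and E2f factors, 18 fell and 3 rose (median −0.80). Ccnd1, the cyclin that answers to serum, fell from 225 ± 7.25 to 97.3 ± 1.16 CPM (mean ± SD, n = 3; log2 fold change −1.21 ± 0.062), and Ccne1, Ccne2 and E2f7 fell by 1.33 ± 0.085, 1.33 ± 0.10 and 1.26 ± 0.076. Ccnd3, the D-type cyclin kept in myotubes, rose (0.74 ± 0.061), as did E2f2 (0.93 ± 0.075). Genes of cell cycle exit went up in 13 of 16 cases and down in 3 (median 0.97). Cdkn1a, the inhibitor p21, stood at 29.7, 30.9 and 30.4 CPM in GM and 75.2, 77.3 and 80.9 CPM at 48 h, with no overlap and a rise of 1.36 ± 0.054 (2.56-fold higher, edgeR adjusted p = 3.02e-15). Gadd45b, Gadd45g and the inhibitor p57 gene Cdkn1c rose by 2.01 ± 0.10, 1.70 ± 0.082 and 1.93 ± 0.27, whereas Rbl1, the pocket protein p107, fell by 0.98 ± 0.063.

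Lipid synthesis moved the other way from cell division. All 24 cholesterol synthesis genes rose (median 2.49). Hmgcs1, which makes the precursor of mevalonate, stood at 60.4, 63.0 and 70.7 CPM in GM and 387, 417 and 431 CPM at 48 h, and Insig1, the sterol sensor, at 37.2, 37.4 and 37.7 CPM in GM and 289, 313 and 330.3 CPM at 48 h. Each library at 48 h was several times each GM library, and the rises were 2.67 ± 0.062 and 3.05 ± 0.05. Idi1, Tm7sf2 and Nsdhl, enzymes of later steps, rose by 3.23 ± 0.074, 3.19 ± 0.11 and 3.06 ± 0.071. Together the 24 genes held 0.110% of the protein-coding counts in GM and 0.585% at 48 h, a mean of 3 libraries each. CCAAT was in 78.9% of 19 promoters of the list, and TCACCCCAC, a form of the sterol response element, in 5.26% against 0.496% of all. That share is 1 promoter, and the titin and Z-disc list had the element in 8% of 25. The Hmgcs1 promoter, at chr13:119690101-119690350 on the plus strand, is the one with the sterol element and also has 3 CCAAT read from the other strand, all in capitals.
Hmgcs1: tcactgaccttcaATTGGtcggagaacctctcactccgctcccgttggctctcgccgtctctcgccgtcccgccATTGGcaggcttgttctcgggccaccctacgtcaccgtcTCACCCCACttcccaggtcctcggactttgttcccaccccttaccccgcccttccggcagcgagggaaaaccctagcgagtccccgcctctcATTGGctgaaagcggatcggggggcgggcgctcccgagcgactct
Of 17 fatty acid genes 14 rose and 1 fell (median 0.81), with the desaturases Scd1, Scd2 and Fads2 at 2.67 ± 0.045, 2.68 ± 0.054 and 2.36 ± 0.079. The exception was Scap, the escort of the SREBP factors (−0.53 ± 0.072).

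Genes of amino acid supply and of the ATF4 stress factor fell almost as a block: 29 of 30 fell and none rose (median −1.56). Trib3 stood at 78.1, 86.0 and 64.9 CPM in GM and 9.24, 8.41 and 8.79 CPM at 48 h. Aldh1l2 stood at 322, 340.2 and 304 CPM in GM and 34.0, 33.2 and 31.4 CPM at 48 h. For both, the highest library at 48 h was far below the lowest in GM, with falls of −3.11 ± 0.10 and −3.29 ± 0.057. TGATGCAA, an element that ATF4 dimers can bind, was in 18.8% of 32 promoters of the list against 0.791% of all. It stands at 2 places, in opposite orientations and in capitals, in the Slc7a11 promoter at chr3:50443614-50443863 on the minus strand.
Slc7a11: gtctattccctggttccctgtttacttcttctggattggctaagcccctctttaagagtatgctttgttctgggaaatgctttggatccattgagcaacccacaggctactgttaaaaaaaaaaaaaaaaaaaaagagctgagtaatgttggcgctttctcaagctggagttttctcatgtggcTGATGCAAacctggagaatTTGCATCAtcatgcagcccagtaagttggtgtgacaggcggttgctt
Of 34 aminoacyl-tRNA synthetase genes 28 fell and 2 rose (median −0.73), with Vars, Wars and Sars at −1.85 ± 0.067, −1.67 ± 0.053 and −1.32 ± 0.042. Endoplasmic reticulum chaperones did not share the block: 9 of 17 rose and 3 fell (median 0.11), among them Dnajb9 at 0.82 ± 0.10 and Edem1 at −0.41 ± 0.049.

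The machinery that makes ribosomes fell too. Of 24 ribosome biogenesis genes 23 fell and none rose (median −0.89), with Nop56 of the nucleolus at −1.62 ± 0.049 and dyskerin, Dkc1, at −1.51 ± 0.062. Of 77 cytosolic ribosomal protein genes 75 fell and none rose (median −0.58), with Rps12 going from 1615 ± 43.0 to 749 ± 21.3 CPM (mean ± SD, n = 3; log2 fold change −1.11 ± 0.055). Of 78 mitochondrial ribosomal protein genes 58 fell and 2 rose (median −0.35), of 53 translation initiation factor genes 39 fell and 6 rose (median −0.32), and of 35 proteasome subunit genes 24 fell and 3 rose (median −0.23). Of 12 small nucleolar RNA host genes 10 fell and 2 rose (median −0.76). Muscle ubiquitin ligases rose in the same libraries: Asb2, Trim72 and Trim63 by 4.37 ± 0.24, 3.97 ± 0.14 and 3.64 ± 0.14, within a list of proteolysis and autophagy genes of which 17 of 22 rose and 2 fell (median 0.74). Sqstm1, the autophagy receptor p62, fell by 0.92 ± 0.046.

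Growth factor and signalling genes were mixed. In the insulin-like growth factor axis, where 10 of 17 rose and 2 fell (median 0.35), Igf1 stood at 0.667, 0.886 and 1.16 CPM in GM and 11.3, 12.4 and 11.4 CPM at 48 h and Igf2 at 2.34, 2.17 and 2.59 CPM in GM and 10.1, 10.4 and 9.95 CPM at 48 h. Both ligands were higher in every library at 48 h (3.68 ± 0.14 and 2.10 ± 0.11), and the binding protein genes Igfbp6 and Igfbp2 fell by 0.89 ± 0.067 and 0.61 ± 0.065. Of 22 immediate early and growth factor response genes 6 rose and 10 fell (median −0.15): Fos rose by 1.86 ± 0.17, while Fosl1, Myc and Etv4 fell by 2.45 ± 0.15, 1.35 ± 0.12 and 1.35 ± 0.087. Of 23 TGF-beta, activin and BMP genes 11 rose and 7 fell (median 0.14), with the myostatin antagonist Fst at 2.73 ± 0.12, Bmp4 at 2.32 ± 0.087 and the BMP antagonist Grem1 at −1.37 ± 0.059. Of 22 Wnt genes 8 rose and 6 fell (median 0.13), with Sfrp2 at 3.54 ± 0.18 and Wnt4 at −1.06 ± 0.17. Of 16 TEAD and YAP genes 11 rose and 3 fell (median 0.49), with the cofactor gene Vgll3 at 1.61 ± 0.072 and the receptor kinase Axl at −0.52 ± 0.047.

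Secreted factors included both strong gains and losses, 8 of 21 higher and 9 lower (median −0.12). Fgf21, a hormone of muscle and liver, stood at 0.741, 0.947 and 0.432 CPM in GM and 13.8, 14.7 and 14.0 CPM at 48 h. It was under 1 CPM in all GM libraries, and it rose by 4.31 ± 0.17. Fndc5, the precursor of irisin, and the chemokine Cxcl12 rose by 3.39 ± 0.23 and 1.47 ± 0.092. Of 20 collagens 14 rose and 2 fell (median 0.45), with Col12a1 going from 274 ± 23.6 to 1586 ± 40.8 CPM (mean ± SD, n = 3; log2 fold change 2.53 ± 0.061) and Col6a3 and Col18a1 falling by 0.93 ± 0.066 and 1.24 ± 0.062. Of 23 matrix glycoprotein genes 12 rose and 10 fell (median 0.21): the small leucine-rich proteoglycan genes Ogn and Dcn rose by 3.58 ± 0.077 and 3.12 ± 0.074, Postn by 2.92 ± 0.09, while osteopontin, Spp1, fell from 2269 ± 138 to 782 ± 27.8 CPM (mean ± SD, n = 3; log2 fold change −1.54 ± 0.053). Of 17 matrix protease genes 10 rose and 4 fell (median 0.56), with Adamts4 and Adamts5 at 3.31 ± 0.077 and 3.08 ± 0.053 and the urokinase receptor Plaur at −2.29 ± 0.068. Of 20 integrins and cadherins 13 rose and 4 fell (median 0.81).

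Acta2, the smooth muscle actin, rose from 449.8 ± 2.16 to 1105 ± 26.4 CPM (mean ± SD, n = 3; log2 fold change 1.30 ± 0.046), while Tagln2 and the calponin gene Cnn1 fell by 1.12 ± 0.052 and 1.75 ± 0.26. The smooth muscle and stress fibre list as a whole had 7 of 17 higher and 7 lower (median −0.06). Of 21 intermediate filament and tubulin genes 7 rose and 11 fell (median −0.42), with Lmnb1 of the nuclear lamina and Tubb5 falling by 1.68 ± 0.074 and 1.23 ± 0.048. Of 32 kinesins 13 rose and 16 fell (median −0.24). Kif18b, Kif15 and Kif14, motors of the dividing cell, were at −1.34 ± 0.081, −1.32 ± 0.065 and −1.20 ± 0.076.

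Regulators of splicing and chromatin changed in both directions. Rbm24, a muscle splicing factor, stood at 0.778, 0.825 and 1.10 CPM in GM and 31.9, 29.0 and 31.1 CPM at 48 h. Ptbp1, which represses neuronal and muscle exons, stood at 159.9, 156 and 151 CPM in GM and 63.4, 62.4 and 65.8 CPM at 48 h. The former was higher and the latter lower in every library at 48 h (5.08 ± 0.12 and −1.29 ± 0.047), in a list with 8 of 19 higher and 8 lower (median −0.0026). Of 28 chromatin regulators 10 rose and 16 fell (median −0.29). The architectural factors Hmga1 and Hmga2 fell by 2.35 ± 0.079 and 1.62 ± 0.089, the maintenance methyltransferase Dnmt1 by 1.61 ± 0.046, and the deacetylases Hdac11 and Hdac9 rose by 1.45 ± 0.10 and 1.38 ± 0.063. Of 344 zinc finger protein genes 162 rose and 44 fell (median 0.22). Solute carriers had 73 of 213 higher and 76 lower (median 0.00073), the glucose transporter family gene Slc2a6 going from 0.161 ± 0.151 to 7.03 ± 0.521 CPM (mean ± SD, n = 3; log2 fold change 5.45 ± 0.29), and potassium channels had 11 of 30 higher and 11 lower (median 0.08).

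Among imprinted genes 10 of 14 rose and 1 fell (median 0.71). Mest, an imprinted hydrolase-like gene (chr6:30733506-30748466), stood at 2.04, 2.23 and 2.43 CPM in GM and 45.9, 47.2 and 44.5 CPM at 48 h. H19, the imprinted long non-coding RNA next to Igf2 (chr7:142575530-142578146), stood at 546, 541 and 574 CPM in GM and 2950.0, 3156 and 3329 CPM at 48 h. Both were higher in every library at 48 h, by 4.36 ± 0.089 and 2.50 ± 0.068, while the imprinted gene Peg10 fell by 0.96 ± 0.14. Dlk1, an imprinted gene of muscle growth, had no count in the 6 libraries. Long non-coding genes as a class had 258 of 825 higher and 110 lower (44.6% called, median 0.32), against 4365 higher and 4670 lower of 12841 protein-coding genes (70.4%, median −0.02). The largest rises among abundant ones were Gm26870, Gm28653 (3.73 ± 0.071), H19, Malat1 (2.17 ± 0.052) and Mir22hg (1.49 ± 0.062). The largest falls were Gm42743 (−1.63 ± 0.086), Gm42418 (−1.36 ± 0.33), AI506816 (−1.24 ± 0.048), Snhg8 (−1.17 ± 0.076) and Snhg12 (−1.13 ± 0.064). Gm42418 was uneven in GM, at 860.2, 1686 and 705 CPM in GM and 469, 419.9 and 379 CPM at 48 h.

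H19 and Mir22hg each span a microRNA gene on the RefSeq annotation of GRCm38.p6, mir-675 within H19 on chr7 and mir-22 within Mir22hg on chr11. A microRNA acts through its seed, so the mature sequences are shown to tell which seeds these hosts carry, with bases 2 to 8 in capitals. The long-RNA libraries do not measure the mature forms.
mmu-miR-675-5p: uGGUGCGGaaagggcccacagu
mmu-miR-675-3p: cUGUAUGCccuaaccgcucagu
mmu-miR-22-5p: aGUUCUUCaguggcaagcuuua
mmu-miR-22-3p: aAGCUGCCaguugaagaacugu
The 4 seeds differ from each other.

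Genes at either extreme of on and off were few. By a rule of under 1 CPM in all 3 libraries of one medium and at least 10 CPM in all 3 of the other, 7 genes were on at 48 h alone, among them Ckm, Mymx, Klhl40, Hrc, Fgf21 and Cacna1s. In the reverse direction 3 genes were off at 48 h: Avil, the actin-binding advillin, at 34.8, 35.7 and 32.7 CPM in GM and 0.572, 0.680 and 0.454 CPM at 48 h; Car6, a secreted carbonic anhydrase, at 19.4, 20.3 and 14.2 CPM in GM and 0.127, 0.250 and 0.206 CPM at 48 h; and Gsta2, a glutathione transferase, at 16.5, 19.1 and 14.5 CPM in GM and 0.540, 0.716 and 0.826 CPM at 48 h. Their falls were −5.90 ± 0.13, −6.52 ± 0.21 and −4.60 ± 0.18.

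Genes of satellite and reserve cells, the undifferentiated cells kept beside myotubes, rose more often than they fell. Pax7, the factor of satellite cells, stood at 6.49, 5.62 and 6.95 CPM in GM and 10.0, 8.73 and 9.08 CPM at 48 h, a rise of 0.55 ± 0.10 (1.46-fold higher, edgeR adjusted p = 4.25e-05). Among those 15 genes 11 rose against 3 that fell (median 0.42), with Sox8, Spry1 and Fgfr4 at 3.13 ± 0.15, 2.64 ± 0.14 and 2.37 ± 0.13. Of 13 iron genes 6 rose and 5 fell (median −0.12), with ceruloplasmin, Cp, at 3.18 ± 0.062 and the ferritin gene Ftl1 at −1.18 ± 0.058, and the interferon response list had 9 of 15 members higher and 1 lower (median 0.36), with Ifit3 at 2.49 ± 0.22.

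Markers of other cell types were scarce. Of 11 adipocyte markers 6 passed the filter on low counts, 2 rose and 3 fell, and Plin1, Cidec and Lep had no count in the 6 libraries. Their summed share of protein-coding counts was 0.0311 to 0.0331% in GM and 0.0208 to 0.0224% at 48 h. Of 12 bone and cartilage markers 4 passed and 2 fell, with Ibsp, Sost and Acan at 0 and shares of 0.00351 to 0.0042% and 0.00272 to 0.0032%. Of 10 neural and glial markers 3 passed and 2 fell, with Rbfox3 and Sox10 at 0 and shares of 0.0218 to 0.023% and 0.0126 to 0.0134%. Of 8 epithelial markers 2 passed and 1 fell, at 0.00226 to 0.00238% and 0.00106 to 0.00112%, and of 9 immune markers 1 passed and fell, with Adgre1, Cd3e and Tyrobp among those at 0. Both of the 8 endothelial markers that passed, Tek and Vwf, rose, by 2.28 ± 0.40 and 2.25 ± 0.32 to about 1 CPM, while Tie1 and Cldn5 had no count. Pparg and Cebpb, adipocyte factors also used elsewhere, fell by 1.14 ± 0.09 and 1.33 ± 0.10. The adipocyte markers that passed ran from −1.33 to 2.59 in log2 fold change, so the largest change in size was a rise. The part of such cells in the results above was not tested.

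**Figure D4:**
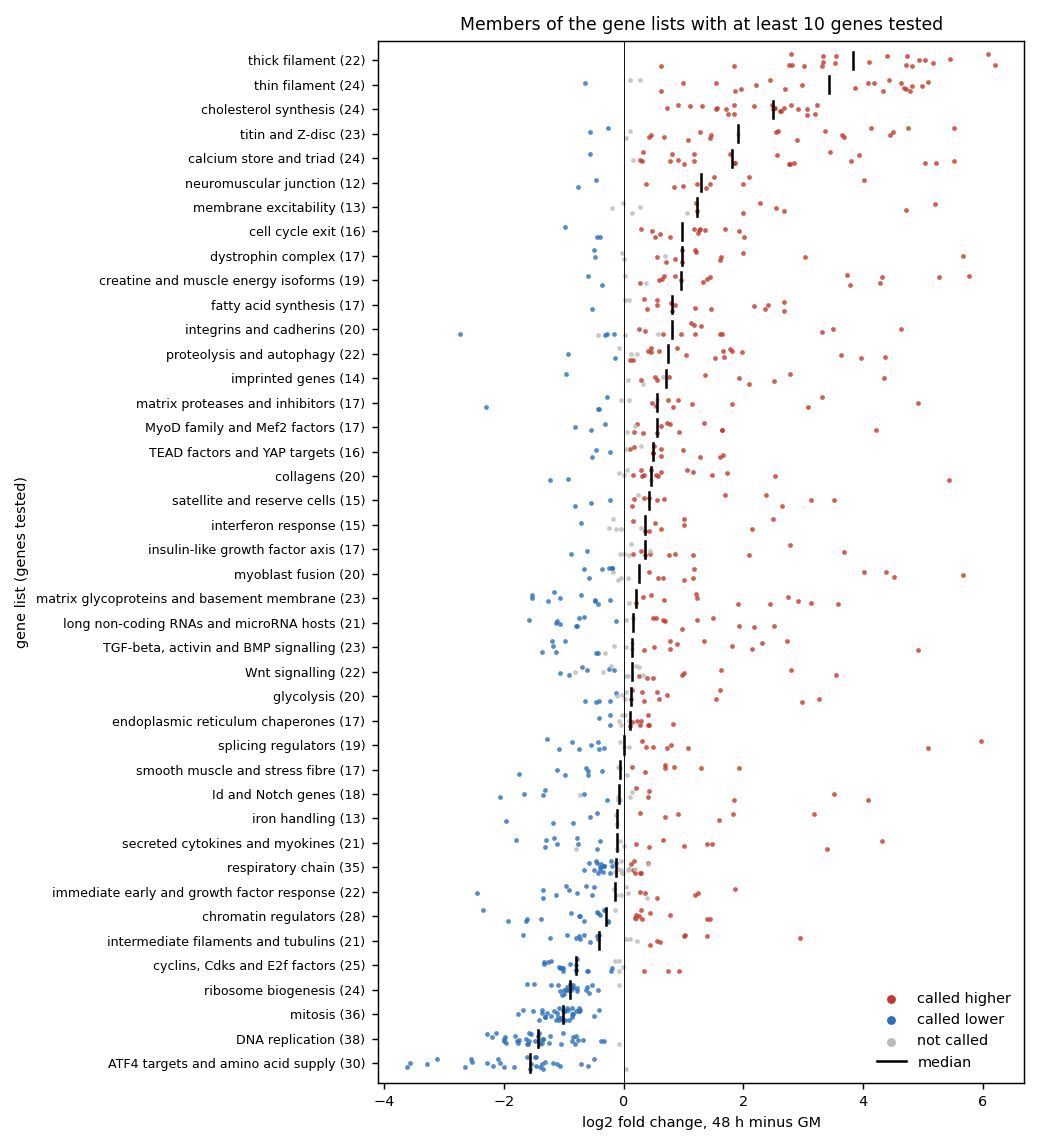
Log2 fold change at 48 h against GM (x axis) of each member of the lists with at least 10 genes tested (y axis), ordered by the median (black line), in red where called higher, blue where called lower and grey where not called. Thick filament (median 3.82), thin filament (3.42) and cholesterol synthesis (2.49) lie at the top and the ATF4 and amino acid list (−1.56) at the bottom. Genes with no count in GM, such as Myl2, are drawn at their fitted value, which is no bound.

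To place 48 h among its neighbours in time, its libraries were set against the mean of the 24 h and 60 h groups (log2 scale, same fit). This mean weighs both groups alike, although 48 h is nearer in time to 60 h. A gene in steady rise or fall can therefore be called without a peak or dip at 48 h. By this contrast 2463 of 15303 genes (16.1%) were called, 1272 higher (8.31%) and 1191 lower (7.78%). Sizes were small: 216 genes lay at least 1.5-fold higher and 97 at least 1.5-fold lower, 49 and 25 at least 2-fold. One library of the 24 h group stood apart in 33 of 4888 abundant protein-coding transcripts, each at least 0.5 (log2 CPM) above both other libraries, where no other library had more than 2. Without it 1693 genes were higher and 1244 lower, and without the first library at 48 h 915 were higher and 618 lower. On total counts, with no scaling factor, the split was 1465 higher to 891 lower. Of the 33, Ttn and Igf1r rose and 22 fell at 48 h against GM (median −0.47).

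Mest was the abundant protein-coding gene farthest above its neighbours in time, at 2.23 ± 0.194 CPM in GM, 2.95 ± 0.399 at 12 h, 16.3 ± 0.920 at 24 h, 45.9 ± 1.37 at 48 h, 28.8 ± 2.24 at 60 h and 32.2 ± 0.566 at 96 h (mean ± SD, n = 3). The level at 48 h was above that of each other group, and the contrast was 1.08 ± 0.055 (edgeR adjusted p = 7.47e-11). Atf3, a stress factor of the ATF family, was at 20.5 ± 2.09 CPM in GM, 10.2 ± 0.785 at 12 h, 6.87 ± 0.456 at 24 h, 13.5 ± 1.41 at 48 h, 7.04 ± 0.722 at 60 h and 9.56 ± 0.419 at 96 h (mean ± SD, n = 3), higher at 48 h than at 24 or 60 h and lower than in GM (0.96 ± 0.085). Fndc1, at 3.66 ± 0.501 CPM in GM, 3.26 ± 0.159 at 12 h, 18.3 ± 4.11 at 24 h, 38.4 ± 3.12 at 48 h, 21.2 ± 1.70 at 60 h and 65.4 ± 3.58 at 96 h (mean ± SD, n = 3), and Ttn were 0.97 ± 0.09 and 0.98 ± 0.13 above the mean of both neighbours, and for Ttn the value without the 24 h library that stood apart was 1.17. Gm26870 was at 1.21 ± 0.38 (adjusted p = 0.0308 by the same test).

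On the other side, Slc16a11 lay at −0.96 ± 0.10 and Aldh1l2 at −0.88 ± 0.05 relative to the mean of 24 and 60 h. Angptl4, an inhibitor of lipoprotein lipase, was at 22.5 ± 2.03 CPM in GM, 78.0 ± 2.00 at 12 h, 41.8 ± 1.01 at 24 h, 30.1 ± 1.31 at 48 h, 79.6 ± 14.0 at 60 h and 18.7 ± 1.16 at 96 h (mean ± SD, n = 3). It dipped at 48 h between higher levels at 24 and 60 h, a contrast of −0.94 ± 0.078. Dhrs3, a retinaldehyde reductase, was at 14.4 ± 0.432 CPM in GM, 23.1 ± 0.671 at 12 h, 36.9 ± 3.32 at 24 h, 16.0 ± 1.29 at 48 h, 21.9 ± 0.651 at 60 h and 18.1 ± 1.73 at 96 h (mean ± SD, n = 3), and Aldh3a1, an aldehyde dehydrogenase, was also lowest at 48 h among 24, 48 and 60 h (−0.83 ± 0.067 and −0.76 ± 0.054).

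**Figure D5:**
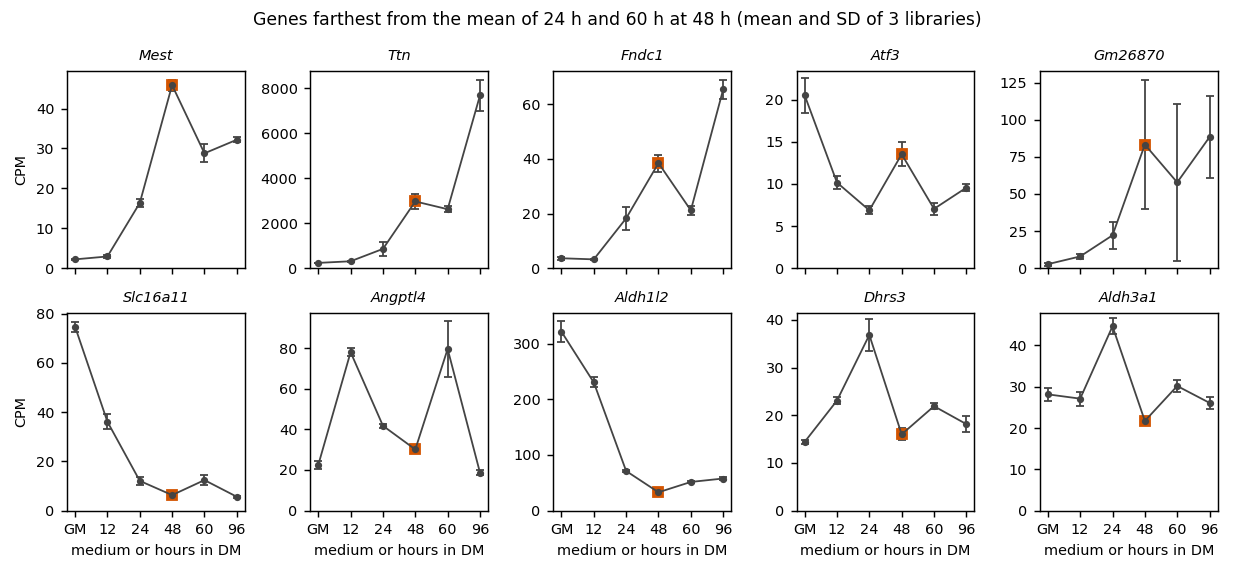
CPM (y axis) in GM and at 12, 24, 48, 60 and 96 h (x axis, evenly spaced) of the 5 genes farthest above and the 5 farthest below the mean of 24 and 60 h at 48 h, as mean and SD of 3 libraries, with 48 h as an orange square. Mest peaks at 48 h, Angptl4 dips between higher levels at 24 and 60 h, and the error bars of Gm26870 are wide.

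Whole lists also differed from the mean of their neighbours, which a steady rise or fall can give without a turn at 48 h. Of 36 mitosis genes 25 were higher at 48 h than the mean of 24 and 60 h and none lower, and of 64 histone genes 54 were higher and none lower, although both groups were below GM. Of 38 DNA replication genes 23 were lower and none higher. Sarcomere genes were above, with 14 of 22 thick and 19 of 24 thin filament genes higher and 1 thin filament gene lower, as were 17 of 24 calcium store genes. Of 20 glycolysis genes 14 were lower and none higher, among them Slc2a1 (−0.47 ± 0.051), Bnip3 (−0.49 ± 0.061) and Pdk1 (−0.35 ± 0.055), of 77 cytosolic ribosomal protein genes 64 were lower and none higher, and of 21 secreted factors 2 were higher and 8 lower. Without the first library at 48 h, 9 glycolysis genes and 5 secreted factors were lower. The other lists of this paragraph kept their direction with any 1 library of the 24, 48 or 60 h groups left out, with 21 to 26 mitosis genes and 52 to 58 histone genes higher and 18 to 23 DNA replication genes lower. For Mki67 the group means were 349 ± 13.2 CPM in GM, 394 ± 13.1 at 12 h, 139 ± 2.94 at 24 h, 136 ± 5.86 at 48 h, 75.7 ± 2.37 at 60 h and 32.5 ± 1.28 at 96 h (mean ± SD, n = 3), and for Mcm5 141 ± 4.95 CPM in GM, 154 ± 5.68 at 12 h, 36.6 ± 1.95 at 24 h, 30.7 ± 3.68 at 48 h, 52.5 ± 2.83 at 60 h and 9.13 ± 1.31 at 96 h (mean ± SD, n = 3). The mean of Mki67 at 48 h (136 CPM) was close to that at 24 h (139 CPM), and its libraries at 48 h were all above those of 60 h. Mcm5 at 48 h lay −0.51 ± 0.068 from the mean of 24 and 60 h.

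Most genes called at 48 h had a more extreme mean at another time. Of the 4979 genes called higher, 949 had their highest group mean at 48 h itself, against 2162 at 96 h, 992 at 60 h, 808 at 24 h and 68 at 12 h. The lowest group mean of the 5025 called lower fell at 48 h in 904 cases, and 2240 had it at 96 h, 746 at 60 h, 1038 at 24 h and 97 at 12 h. Myog had group means of 13.4 ± 0.201 CPM in GM, 25.0 ± 2.73 at 12 h, 77.7 ± 2.60 at 24 h, 249 ± 9.33 at 48 h, 388 ± 29.6 at 60 h and 803 ± 15.3 at 96 h (mean ± SD, n = 3), and Myh8 of 0.195 ± 0.0820 CPM in GM, 0.532 ± 0.281 at 12 h, 1.20 ± 0.247 at 24 h, 5.40 ± 0.527 at 48 h, 10.6 ± 1.72 at 60 h and 80.1 ± 4.84 at 96 h (mean ± SD, n = 3). Hmgcs1 was past its peak, with 64.7 ± 5.35 CPM in GM, 223 ± 3.42 at 12 h, 531 ± 36.0 at 24 h, 412 ± 22.8 at 48 h, 303 ± 10.4 at 60 h and 202 ± 8.51 at 96 h (mean ± SD, n = 3). These orders of means were not tested.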

How the data were processed

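RNA-seq counts came from 18 C2C12 libraries, 3 in each of 6 groups, of which GM and DM48h are compared here, with DM24h and DM60h as neighbours. The deposited table holds whole-number counts per gene, and the submitters' processing notes name STAR, RSEM and DESeq2 without their roles. ATAC-seq peaks carry the authors' fold enrichment, a ratio, and −log10 p and q, from 1 deposited list for each condition. The notes name Bowtie2 2.2.6 and MACS2 2.2.7. All columns of the count table matched a sample (0 did not).

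The counts entered edgeR 4.0.16 (R 4.3.3) with TMM factors, the default filter by group, which left 15303 genes, quasi-likelihood tests with 12 residual degrees of freedom over all 18 libraries, and Benjamini-Hochberg adjustment over all genes tested. Genes of RefSeq tables on GRCm38.p6 were matched by symbol. The named genes are a fixed panel, the 10 largest rises and falls whose mean log2 CPM is 3 or more, the 5 each way against neighbouring times, up to 4 members of each list with the largest change and up to 2 against its direction, the 5 long non-coding genes each way, and the genes switched on or off. The members, the lists and these rules were chosen with earlier results of these data known. The 12 gene families and the promoters shown were chosen after values or matches were seen. Lists are described by counts and medians, with no set test.

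On simulated data of 13659 genes for the 48 h comparison, 70.1% of 67 genes changed 1.5-fold, 86.6% of 67 changed 2-fold and 97.0% of 66 changed 4-fold were recovered, with 9 false calls. The simulated counts were drawn with the spread that edgeR had fitted, and no other genes were changed. In the data 65.4% of genes were called, so these figures do not measure recovery or false calls there. Alternatives were other scalings and filters, DESeq2 1.42.0, a test against 1.5-fold, a replicate block, the compared groups alone, and each library left out in turn.

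Results for a few genes are not reported here.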

Additional observations from a re-analysis of the deposited data

How the results depend on the processing

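No named gene changed direction under any alternative run. The split of calls against GM was close to even (49.8% higher), and which side was larger changed with the setting: with upper-quartile scaling 5233 genes were called higher and 4770 lower, and DESeq2 gave 4827 and 4792. Tested against a 1.5-fold change in place of no change, 1682 genes stood above and 1583 below GM, and 6 higher and 4 lower than the mean of 24 and 60 h, since that test asks for a larger change. Leaving out each library in turn gave 4477 to 5139 genes higher and 4695 to 5050 lower than GM. Against the mean of 24 and 60 h it gave 910 to 1693 higher and 618 to 1244 lower. The 910 came without the third library at 48 h, with 952 without the second and 915 without the first. The 618 came without the first library at 48 h, and both highest counts without the third library at 24 h. The cause was not tested. Other scalings, filters, DESeq2 and the compared groups alone kept every count within 1.5 times. Replicate numbers did not pair the libraries: the correlations of same-numbered libraries were 0.13, −0.289 and −0.249. Higher values were seen across numbers, 0.314 for GM 3 with 48 h 2 and 0.312 for GM 2 with 48 h 3. A block by such a crossed pairing was not tested. With the number as a replicate block, 4930 genes were higher and 5011 lower than GM, and 1223 higher and 1129 lower than the neighbouring times. The median of the splicing list lies near 0 and was above it with other scalings, at 0.0024 on total counts. Genes under the filter were beyond the depth of these libraries. Of the 10004 genes called against GM, 2521 were at least 1.5-fold higher and 2417 at least 1.5-fold lower. The remaining calls were of smaller changes, a size that the simulation did not try.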
